A study of Rattus norvegicus with 8 samples.

Results

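Nrg1, the ligands of the epidermal growth factor (EGF) family and their ERBB receptors were followed in rat liver by 10 genes: the ligand genes Nrg1, Egf, Tgfa, Hbegf, Areg, Ereg and Btc and the receptor genes Egfr, Erbb2 and Erbb3. All 10 were found on the array by symbol, out of 36305 gene names, and had 19 of its 45598 probes; 13 probes of 7 of the genes were bright enough to be tested. The family was chosen by the lower Nrg1 signal of STL livers on these same arrays, so the Nrg1 difference is given as a description, with no test. Liver RNA came from male Wistar rats of matched age, 4 per group, on commercial chow. Controls received maltodextrin at 3.0 g per kg body weight, and the STL group received structured lipids that contain butyrate (STL) at 1.65 g per kg daily by gavage, a dose of equal calories. Both groups entered the "resistant hepatocyte" protocol of liver carcinogenesis 2 weeks after treatment began and were killed at 8 weeks, so the controls are not healthy untreated livers, and rats outside the protocol were not analysed here.

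Proteins of the EGF family carry a compact module held together by cysteine bridges, are mostly made as membrane-anchored precursors, and are cut free at the cell surface by proteases. Egf, Tgfa and Areg bind the EGF receptor, Hbegf, Btc and Ereg bind it and ERBB4, and neuregulin 1, the product of Nrg1, binds ERBB3 and ERBB4. ERBB2 has no ligand of its own and acts as a dimer partner, ERBB3 has little kinase activity, and in liver the EGF receptor is abundant on hepatocytes and takes part in regeneration.

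The probes are 60 bases long and lie in rn4, the rat genome build named in the file headers. The sequences of the 3 Nrg1 probes that gave signal on all 8 arrays are shown because the difference in Nrg1 rests on them, and they read different segments of its messenger RNA. Probe A_64_P281840, at chr16:64093933-64093992 on the plus strand, lies in the coding sequence of the EGF-like module, the part that binds the receptor; its capitals mark cysteine codons. Probes A_44_P1089321, at chr16:64121704-64121763, and A_44_P477819, at chr16:64124972-64125031, lie in the coding sequence of the cytoplasmic tail of the membrane-anchored precursor. These places in the protein, and that of the Egf probe below, rest on the probes' reading frames and on background knowledge. Protein sequences and exon annotation of this build were not used here. An Egf probe, A_64_P120734, at chr2:227123727-227123786 on the minus strand, is shown beside them because it covers the end of the mature EGF peptide, with a cysteine codon in capitals. All are printed 5′ to 3′ in the sense of the messenger RNA.
Nrg1 A_64_P281840, EGF-like module: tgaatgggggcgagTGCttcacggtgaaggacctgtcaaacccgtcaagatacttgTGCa
Nrg1 A_44_P1089321, cytoplasmic tail: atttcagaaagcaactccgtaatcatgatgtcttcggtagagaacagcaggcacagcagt
Nrg1 A_44_P477819, cytoplasmic tail: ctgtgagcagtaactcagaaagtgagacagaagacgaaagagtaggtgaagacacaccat
Egf A_64_P120734, end of the EGF peptide: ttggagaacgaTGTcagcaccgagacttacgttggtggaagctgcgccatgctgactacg

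Values below are normalised log2 signals, where 0 is the 75th percentile of that array's probes, so a difference of 1 is a 2-fold difference. They compare samples within a probe, since brightness also depends on the probe. The raw 75th percentile was 304 to 605 intensity units, and between 54.2% and 62.8% of an array's probes gave signal well above background. Precision is limited by how few arrays there are. The arrays labelled control 1 and control 2 differed by 1.04 times the spread of repeated spots within an array (against 2.14 to 6.84 times for the other 27 pairs of arrays). They were averaged and counted as 1 sample, which left 3 control and 4 STL samples. Of 27001 probes tested with limma, 1 differed at an adjusted p under 0.05, which is 0.0037%, and 4925 had an unadjusted p under 0.05. Of the 10 member probes that are not of Nrg1, 0 passed and 2 had an unadjusted p under 0.05.

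Nrg1 signal was about 3 times lower in the livers of STL rats, on each of the 3 probes. On the brightest, the tail probe A_44_P477819, the log2 signal was -0.49 in control 1, -0.54 in control 2, 0.09 in control 3 and 0.20 in control 4. It was -1.82 in STL 5, -1.28 in STL 6, -1.69 in STL 7 and -1.81 in STL 8. All 4 STL samples lay below every control, with a gap of 0.76 between the lowest control and the highest STL sample. The group means were -0.07 ± 0.39 (SD, n = 3) and -1.65 ± 0.25 (SD, n = 4), a difference of -1.57 (SE 0.21), or 2.98-fold.

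The probe in the EGF-like module, A_64_P281840, gave the same order of groups. Its log2 signal was -1.66, -1.72, -1.19 and -1.35 in controls 1 to 4 and -3.23, -2.78, -3.35 and -3.18 in STL 5 to 8. The difference was -1.72 (SE 0.20), or 3.30-fold, and the gap between the groups was 1.09. The other tail probe, A_44_P1089321, read -2.54, -2.73, -2.01 and -2.38 in the controls and -4.26, -3.56, -3.95 and -3.51 in the STL samples. Its difference was -1.48 (SE 0.25), or 2.78-fold, with a gap of 0.88. Segments that encode the receptor-binding module and the tail of Nrg1 were thus both lower in the STL samples. Within the controls, the averaged controls 1 and 2 were lowest on all 3 probes, and leaving them out moved the difference of the brightest probe from -1.57 to -1.79. With background corrected by normexp in place of the processed signal, the 3 differences shrank to -1.18 (A_44_P477819), -0.82 (A_64_P281840) and -0.55 (A_44_P1089321), each still lower in STL.

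**Figure D1:**
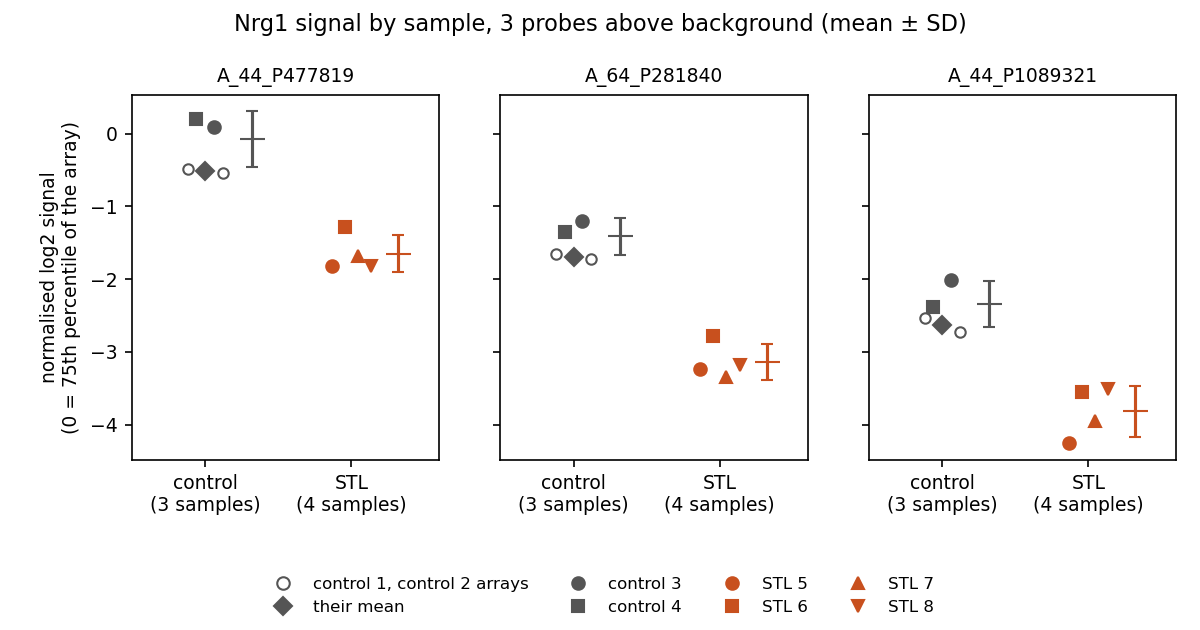
Normalised log2 signal (vertical axis, 0 at the array's 75th percentile) of the 3 Nrg1 probes above background on all arrays, for control (grey) and STL (orange) livers; filled symbols are samples, open circles the arrays control 1 and control 2 that were averaged, and bars the mean ± SD. On every probe the 4 STL samples sit below all controls, with gaps of 0.76, 1.09 and 0.88 from left to right.

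The remaining Nrg1 probes were dim. A_44_P1088971 starts 1083 bases beyond the end of the brightest probe, and A_44_P1164536 starts 493 bases beyond it. A_44_P1088971 was well above background on control 1 only, at -3.59, against -7.07 in control 2. Over repeated probes bright on all arrays, control 1 and control 2 typically differed by 1.04 times the spread of repeated spots. A_44_P1164536 was well above background on 0 of 8 arrays. Neither was tested, and no fold is given for them.

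Egf, which encodes the founding ligand of the family, had higher signal in STL samples on both probes, but neither difference passed the test. On A_42_P831499, at chr2:227104446-227104505, the log2 signal was 0.14, 0.17, 0.04 and -0.87 in controls 1 to 4 and 0.52, 0.69, 0.78 and 0.49 in STL 5 to 8. The groups did not overlap, with a gap of 0.34, and control 4 lay far below the other controls. The difference was 0.85 (SE 0.24, limma adjusted p = 0.187), or 1.80-fold, and it was 0.52 without control 4. On A_64_P120734, printed above, the signal was -2.14, -2.01, -2.39 and -3.50 in the controls and -1.91, -1.84, -2.20 and -2.21 in the STL samples. These groups overlapped, the difference was 0.62 (limma adjusted p = 0.325), and without control 4 it was 0.20. So the size of the Egf difference on both probes depended on control 4.

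Tgfa, which encodes transforming growth factor alpha, differed little between the groups. On its brightest probe, A_64_P122865, the signal was 0.75, 0.52, 0.39 and 0.33 in the controls and 0.87, 0.56, 0.85 and 0.85 in the STL samples. STL 6 was the lowest of its group there and lay within the control range. The difference was 0.33 (limma adjusted p = 0.244; 95% interval 0.03 to 0.63). A_44_P310168 gave 0.19 (limma adjusted p = 0.385) and A_44_P1104938 gave -0.16 (limma adjusted p = 0.648), which turned to 0.08 with normexp background. The 3 Tgfa probes therefore did not share a direction, and their groups overlapped.

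Hbegf, the gene of heparin-binding EGF-like growth factor, read -2.44, -2.67, -2.71 and -2.53 in the controls and -2.42, -2.71, -3.36 and -2.47 in the STL samples. STL 7 alone was lower than the rest; the difference was -0.14 (limma adjusted p = 0.778; 95% interval -0.70 to 0.42) and turned to 0.07 without STL 7. Areg, the amphiregulin gene, was well above background on STL 6 only (-4.06). Btc, the betacellulin gene, was well above background on control 4 only (-3.15), and Ereg, the epiregulin gene, on 0 of 8 arrays. No fold is given for these 3 ligands. Their probes and those of another ligand gene, Epgn, which encodes epigen, are neighbours on rn4 chromosome 14: the 5 probes span 341 kb. At the brightest of them, Epgn A_44_P1097058, 4 of 8 arrays were well above background.

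Among the receptors, Egfr had high signal in every liver and no difference that passed the test. On A_44_P1112991 the log2 signal was 3.78, 3.86, 3.06 and 2.51 in controls 1 to 4 and 3.88, 3.64, 3.66 and 3.38 in STL 5 to 8. The controls spread more widely than the STL samples, with control 4 lowest. The difference was 0.51 (limma adjusted p = 0.344) and was 0.20 without control 4, while without the averaged controls 1 and 2 it was 0.85. On A_44_P346408 the signal was 3.22, 3.14, 2.31 and 1.54 in the controls and 2.57, 2.54, 2.62 and 2.84 in the STL samples. All 4 STL samples lay inside the control range, and the difference of 0.30 (limma adjusted p = 0.626) turned to -0.10 without control 4.

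A further Egfr probe, A_44_P1112996, at chr14:97760372-97760431, is annotated to a predicted transcript, as is A_44_P1112991. It was well above background on 3 of 4 STL arrays, at -3.00 in STL 5, -3.25 in STL 7 and -3.36 in STL 8, and not in STL 6 (-5.18). The controls, none well above background, read -5.23, -5.83, -5.50 and -5.07. The control signal is only an upper bound, and the STL mean was 2.85-fold above that bound. The STL mean includes STL 6, itself not well above background, so this fold is approximate. It was not tested, because too few arrays passed the brightness rule. STL 6, at -5.18, lay inside the control range.

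Erbb2 had the widest spread of the receptors. Its signal was -2.40, -2.18, -1.74 and -0.46 in controls 1 to 4 and -3.03, -1.53, -2.32 and -3.15 in STL 5 to 8. Control 4 was highest of all, and STL 6 lay above the other controls, so the groups overlapped. The difference was -1.01 (SE 0.50, limma adjusted p = 0.311), or 2.01-fold lower; it was -0.49 without control 4 and -1.41 without the averaged controls 1 and 2. Erbb3, the receptor gene for neuregulin 1 among those tested, read -0.42, -0.42, -0.55 and -1.40 in the controls and -0.63, -0.65, -0.98 and -1.13 in the STL samples. Here control 4 was the lowest sample of all. The difference was -0.06 (limma adjusted p = 0.914; 95% interval -0.63 to 0.50), and it was -0.37 without control 4 and 0.12 without the averaged controls 1 and 2.

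**Figure D2:**
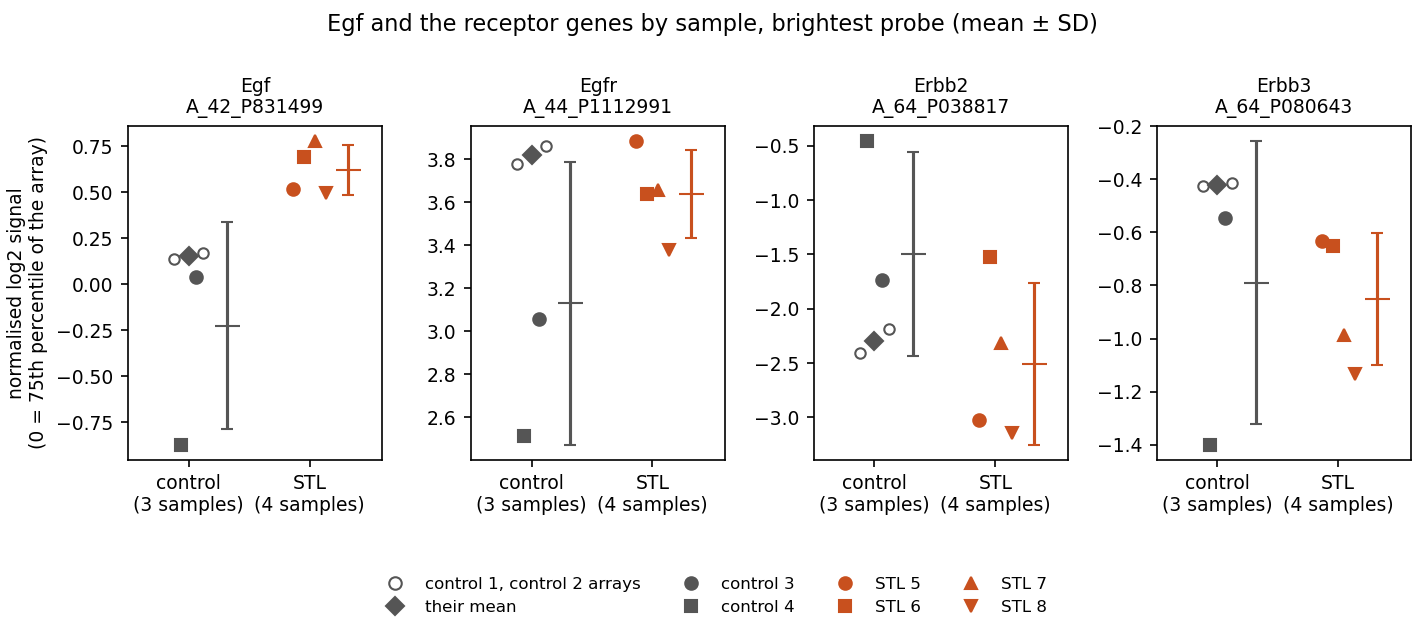
Normalised log2 signal (vertical axes, 0 at the array's 75th percentile, scaled separately per panel) of the brightest probe of Egf, Egfr, Erbb2 and Erbb3 in control (grey) and STL (orange) livers, with mean ± SD. Control 4 (grey square) is the lowest sample for Egf, Egfr and Erbb3 and the highest for Erbb2.

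Across the 13 member probes, 3 were lower in all STL samples than in all controls, all of Nrg1, where the same held for 5.71% of all probes. The opposite held for 1 member probe, of Egf, against 10.5% of all probes. At least 2-fold lower mean signal was found for 4 member probes, those of Nrg1 and Erbb2, against 2.36% of all probes. The counts that include Nrg1 follow from the choice of the gene. Of the 10 member probes of other genes, 6 were higher and 4 lower in STL, with a median difference of 0.25 against 0.05 over all probes. The member probes without overlap between groups numbered 8 in place of 4 without the averaged controls 1 and 2, and 7 without STL 6. Groups of fewer samples separate more easily on any probe, and the shares over all probes were not counted in these settings. These counts are therefore no result about the members.

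**Figure D3:**
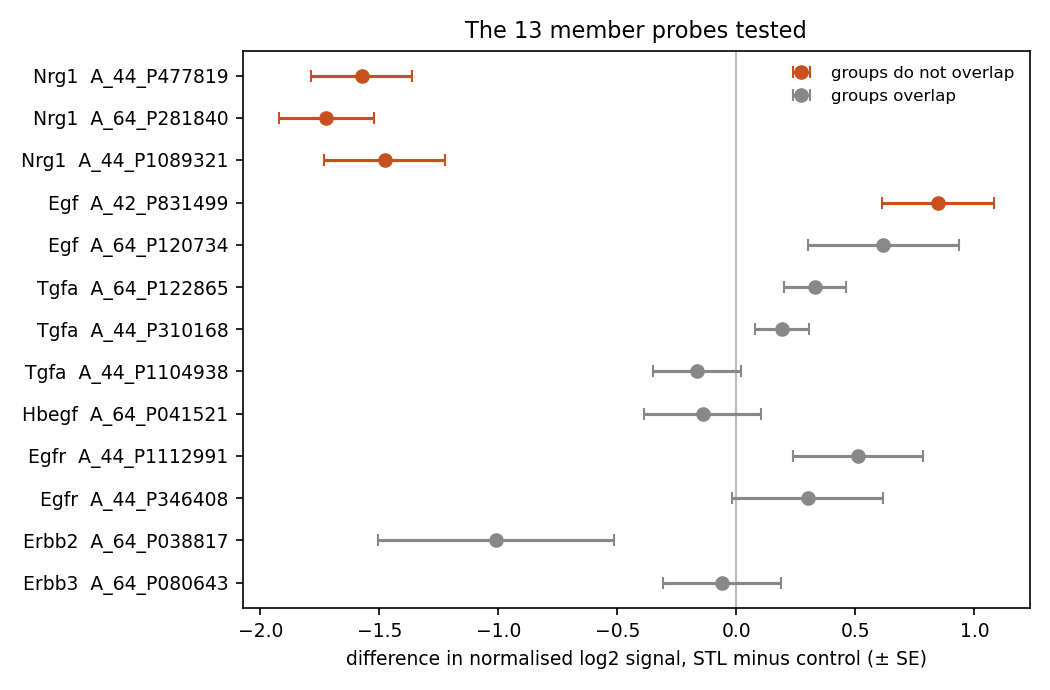
Difference in normalised log2 signal (horizontal axis, STL minus control) of the 13 member probes tested, as points with the SE as bars; orange marks probes whose groups do not overlap. The 3 Nrg1 probes lie between -1.72 and -1.48, and the other probes between -1.01 and 0.85.

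Markers of several liver cell types also differed in level between these livers, and in bulk RNA fewer cells of a type cannot be told apart from less RNA per cell. The summed signal of 7 hepatocyte markers was 1286 to 1706 in the controls and 1749 to 2645 in the STL samples (linear units of the 75th percentile), lowest in control 4; as a check of the tissue label, all 7 were above background on every array. Hepatic stellate cell markers, 10 in all, summed to 49.6 to 98.3 in the controls and 32.2 to 47.4 in the STL samples, again without overlap and highest in control 4. Bile duct cell markers, 9 in all, summed to 5.42 to 12.8 and 2.48 to 6.30, with control 4 highest. Endothelial markers (7) summed to 55.1 to 79.8 in the controls and 78.8 to 103 in the STL samples. Macrophage markers (10) summed to 126 to 152 and 109 to 152, and lymphocyte markers (8) to 13.3 to 17.8 and 13.4 to 19.4, with Cd3e and Ms4a1 above background on 0 arrays. Granulocyte and mast cell markers (8) summed to 2.80 to 3.73 and 1.84 to 2.81, with Mpo and Ms4a2 on 0 arrays. Cell division genes (8) summed to 5.71 to 15.6 and 5.51 to 6.71, with the averaged controls 1 and 2 at 5.71. These sums weigh the brightest markers most: as mean log2 per marker, centred over the samples, the groups overlapped for hepatocyte and for stellate cell markers. The hepatocyte mean was -0.63 to 0.17 in the controls and 0.03 to 0.47 in the STL samples, and the stellate cell mean was -0.02 to 0.65 and -0.48 to 0.05. By this mean the groups did not overlap for lymphocyte or for granulocyte and mast cell markers, over the 6 tested of each. The lymphocyte mean was -0.45 to 0.04 in the controls and 0.05 to 0.21 in the STL samples. That of granulocyte and mast cell markers was 0.23 to 0.80 and -0.82 to -0.02. Means of the remaining lists overlapped. The part of the other cell types in the differences of Nrg1, Egf and the receptors was not tested.

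Other genes of the pathway were read from lists of 64 genes, of which 62 were on the array and 54 were tested at their brightest probe. None of the 54 passed the test (0 by limma after adjustment over all probes, 7 at an unadjusted p under 0.05). Over all 27001 probes tested, 4925 had an unadjusted p under 0.05 by limma. Of the 54 pathway genes 24 were higher and 30 lower in STL, and their median difference was -0.03. Over all probes tested, 15290 were higher and 11711 lower, with a median difference of 0.05. The direction turned under at least 1 alternative for 23 of the 54 pathway genes, and of 23 with more than 1 probe tested, 12 had probes that differed in direction. Values that follow are for the genes with the smallest unadjusted p of each list. Among other ligands and receptors, the neuregulin gene Nrg2 differed by -0.65 (limma adjusted p = 0.304), Nrg4 by 0.36 and Epgn by 0.06, and the groups overlapped for all 3. Nrg2 was -0.36 with normexp background, Nrg4 was 0.10 without control 3, and Epgn ranged from -0.24 to 0.35 over the alternatives. The other Nrg2 probe gave 0.08. Erbb4, the other receptor gene for neuregulins, was well above background on 1 of 8 arrays and was not tested.

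Genes of ligand release, which encode the proteases that cut the precursors free and the rhomboid-like proteins that carry ADAM17 to the cell surface, were lower on average in STL at the brightest probe of 7 of 7 tested, with a median of -0.27, each with the same direction under 19 alternatives; over all probes tested, 11711 of 27001 were lower. The other probe of Adam10, the only one of the 7 with more than 1 probe tested, was higher in STL, at 0.16, against -0.20 at the brightest. None passed the test, and for 3 of them (Rhbdf2, Adam12 and Adam9) the groups did not overlap, which held in this direction for 5.71% of all probes. Rhbdf2, the iRhom2 gene, lay below every control in all 4 STL samples, with means of -1.42 ± 0.23 (SD, n = 3) and -2.16 ± 0.12 (SD, n = 4). The difference was -0.73 (limma adjusted p = 0.173) and was -0.42 with normexp background. Adam12, a metalloprotease gene, differed by -0.66 (limma adjusted p = 0.188; -0.40 with normexp) and Adam19, of the same family, by -0.46 (limma adjusted p = 0.313; -0.16 without control 4). For Adam17, the main protease for several of these ligands, the difference was -0.27 (limma adjusted p = 0.371).

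Genes of adaptors and relay proteins, which pass the receptor signal to the RAS and PI3-kinase routes, had a median difference of -0.05 over 23 tested, with 10 higher and 13 lower. The groups did not overlap for 5 higher and 1 lower gene, against 10.5% and 5.71% of all probes. Pik3r1, a regulatory subunit gene of PI3-kinase, differed by 0.62 (limma adjusted p = 0.199), and its 3 probes gave 0.62 to 0.83. Map2k2, a kinase gene of the MAP kinase route, differed by 0.35 (0.23 with quantile normalization), and Sos1, an activator gene of RAS, by 0.28 (0.18 without control 4; limma adjusted p = 0.209 and 0.259).

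Negative regulators had a median of 0.06 over 13 tested. Errfi1, which encodes MIG6, an inhibitor that binds the kinase domain of ERBB receptors, had a log2 signal of 7.35, 7.03, 7.22 and 6.04 in the controls and 8.43, 7.89, 8.08 and 8.07 in the STL samples. All STL samples lay above all controls, with control 4 lowest. The difference was 1.30 (SE 0.29), or 2.46-fold, and did not pass the test (limma adjusted p = 0.173); it was 0.91 without control 4, and its other probe gave 1.16. Spry2, a Sprouty inhibitor gene, differed by -0.66 and Dusp4, a MAP kinase phosphatase gene, by 0.41 (limma adjusted p = 0.378 and 0.427); with normexp background Spry2 turned to 0.04, and without control 4 Dusp4 was 0.18.

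Growth factor response genes had a median of -0.01 over 8 tested. Ccnd1, the gene of cyclin D1, which drives entry into the cell cycle, read 1.74, 1.77, 2.11 and 2.46 in the controls and 0.30, 1.37, 0.60 and 0.34 in the STL samples. The groups did not overlap, and STL 6 was the STL sample nearest to the controls, as it was on the brightest Nrg1 probe. The difference was -1.45 (SE 0.27), or 2.74-fold lower (limma adjusted p = 0.163), and its other probe gave -1.03. Without STL 6, Ccnd1 passed the test, in a setting where the count over all 27001 probes rose from 1 to 54. It passed under no other alternative. The transcription factor gene Myc differed by -0.43 and the early response gene Ier2 by 0.23 (limma adjusted p = 0.393 and 0.442), and without control 4 these were -0.15 and 0.04.

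**Figure D4:**
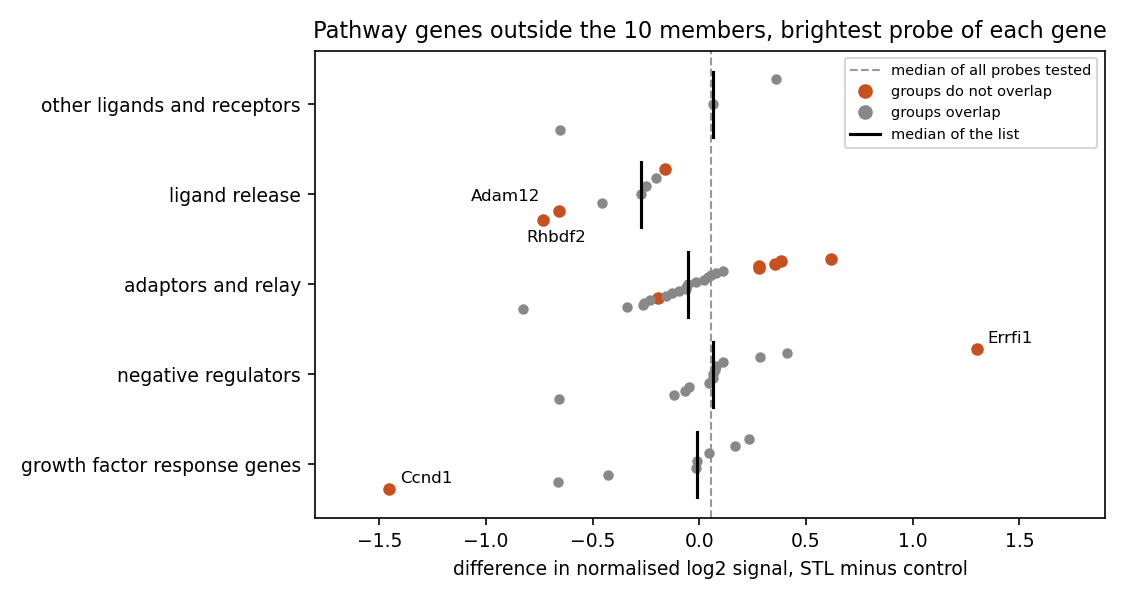
Difference in normalised log2 signal (horizontal axis, STL minus control) of the pathway genes outside the members, 1 point per gene at its brightest probe, by list; black bars are list medians and the dashed line the median of all probes, 0.05. All 7 ligand release genes lie below 0 at that probe, and Errfi1 (1.30) and Ccnd1 (-1.45) lie farthest out.

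Genes whose pattern over the 7 samples was most like that of the brightest Nrg1 probe were listed as a description, out of 11333 compared. The highest Pearson correlations were 0.996 for Dennd10, 0.991 for Ywhah, 0.991 for Nefl, 0.989 for Golt1b and 0.988 for Lztfl1; the other Nrg1 probes had 0.986 and 0.949. These values share arrays and scaling, and a difference between the groups alone raises them. The log2 difference was -0.34 for Dennd10, -0.50 for Ywhah, -0.39 for Golt1b and -0.54 for Lztfl1, each smaller in size than that of Nrg1. Nefl, the neurofilament light chain gene, was well above background on 4 of 4 control and 0 of 4 STL arrays and was at least 3.13-fold lower in STL, so its correlation and its place in the order rest partly on signals at background.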

How the data were processed

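Liver RNA carried Cy3 on 1-colour Agilent arrays, 8 on 1 slide with 1 scan time and each slide column holding 1 control and 1 STL array, per the file headers. Each spot's intensity was taken from the deposited scanner files, made with Agilent Feature Extraction, version 11.5.1.1 per the file headers and 10.7 per the submitters' processing notes. The authors' deposited table of the series holds intensity on a linear scale, with column medians of 42.1 to 48.9; in 6 of its 8 columns the values belong to a different array from the one named, always of that group (0 of the other), so it was used as an alternative only.

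Processed signals of a probe's unflagged spots were averaged, log2 transformed from the deposited intensity and set against the array's 75th percentile. A probe was well above background where at least 0.5 of its spots were, and was tested if so on at least 4 of 8 arrays. Groups were compared with limma 3.58.1 (R 4.3.3; intensity trend, Benjamini-Hochberg over 27001 probes, threshold 0.05), after a test on simulated data. The labels give 4 rats per group; for control 1 and control 2 the p-values and spread rest on their mean. An "at least" fold sets the brighter group's mean against the dimmer group's mean of, per array, the higher of its own signal and the lowest signal well above background. Marker sums add linear scaled signals of 1 probe, the brightest, per gene.

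Members and gene lists were chosen with earlier results of these data known. The text names every member probe, of each pathway list the genes past the threshold or else the 3 with the smallest unadjusted p, and the 5 genes most like Nrg1; Adam9, Adam10, Adam17, Erbb4 and probes that disagree were added after their values were seen. Members were matched by the gene name of the array design. Genes of the pathway and marker lists and those most like Nrg1 carry the RefSeq symbol of the probe's transcript. It was found for 21102 of 45598 probes, and the array's gene name was used for the rest. The count of gene names on the array uses the same symbols. Alternatives were other normalizations, background correction, filters, weights, blocks, tables and leaving out samples.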

Additional observations from a re-analysis of the deposited data

Results flagged for a closer look

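One value stood far from the rest of its group. On the Tgfa probe A_64_P122865, STL 6 read 0.56 in normalised log2 signal while the other 3 STL samples lay between 0.85 and 0.87; the gap was 0.943 of the group's range, above Dixon's 95% critical value for 4 samples. The STL group was examined in this way for each of the 13 member probes tested, and chance marks about 1 in 20 groups.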

How the results depend on the processing

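All 3 Nrg1 probes kept their direction under the 19 alternatives run; the brightest ranged from -1.79 to -1.44 with 1 sample left out and was -1.18 with normexp background, where an offset of 50 is added to all signals. Of the other 10 member probes, none past the threshold, 4 turned direction under some alternatives: Tgfa A_44_P1104938 and Egfr A_44_P346408 under 1 of 19 each, and Hbegf and Erbb3 under 3 each. Over all probes the count past the threshold, 1, became 30 with 8 arrays as samples, 30 with the authors' series table, 2 with slide column as a block, 84 with array weights and 1 to 227 with 1 sample left out: 227 without controls 1 and 2, 54 without STL 6 and 3 without control 3. The member count, 0, became 2, 2 and 3 with 8 arrays, the series table and array weights, and 0 to 2 with 1 sample left out, where 2 came without STL 6 or without controls 1 and 2; all were Nrg1 probes, whose difference chose the family, so these counts are no support for it. The pathway gene count, 0, became 1 without STL 6 (0 to 1 with 1 sample left out). The count of member probes without overlap, 4, was 4 to 8 with 1 sample left out, in alternatives chosen after seeing the data. No share over all probes was counted in these alternatives, where fewer samples separate more easily on any probe. Over the alternatives, the lowest adjusted p by limma was 0.0801 for Egf A_42_P831499 and 0.0864 for Egfr A_44_P1112991. The groups share no replicate numbers; with slide column as a block, each holding 1 control and 1 STL array, the member count was 0. Signal near background limits Areg, Ereg, Btc and 3 other member probes.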
